A study of Mus musculus with 4 samples.

Results

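Hormone receptor lineage genes are the genes by which one branch of the mammary epithelium senses ovarian and pituitary hormones and passes the signal on. The set held 9 genes of 31781 in the count files, chosen by name: the receptor genes Esr1, Pgr and Prlr, the transcription factor genes Foxa1 and Gata3, the co-activator genes Cited1 and Cited4, and the secreted signal genes Tnfsf11 and Wnt4. They were read in single-cell RNA libraries of MMTV-PyMT mice, in which a mammary tumor virus promoter drives polyoma middle T antigen in the mammary epithelium. All 4 groups carry this transgene, and each group is 1 library: PKA tumor, WT tumor, PKA hyperplasia and WT hyperplasia. In PKA mice the kinase that answers cyclic AMP, protein kinase A, is labelled as activated, by means the labels do not give, and WT mice are labelled wild type. Tumors were taken at 16 to 20 weeks of age by the sample labels, or 22 weeks by the series design, and hyperplastic glands at 8 to 9 weeks. The design text speaks of glands and tumors of the same mouse, which the ages do not bear out, and neither it nor the labels say how many mice a library holds. The labels list no treatment.

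Estrogen and progesterone act through the nuclear receptors encoded by Esr1 and Pgr, and prolactin through the membrane receptor encoded by Prlr, which signals through JAK2 and STAT5. In the mouse mammary gland these receptors are known from mature luminal cells, which answer the hormones with paracrine signals to neighbouring cells. Tnfsf11 encodes RANKL and Wnt4 a WNT ligand, both known as progesterone-induced signals to progenitor and basal cells. Foxa1 and Gata3 encode factors known to open and maintain the luminal programme, and Cited1 encodes a CBP/p300-binding co-activator that enhances estrogen receptor activity.

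The annotated cells numbered 2638 in PKA tumor, 5181 in WT tumor, 3818 in PKA hyperplasia and 3808 in WT hyperplasia, and the library totals ran from 10648097 to 24499374 unique molecular identifiers (UMIs, each marking 1 captured RNA molecule). Levels are UMIs of a gene per 1000000 UMIs of the cells summed (CPM), and each bracketed range is a 95% interval of counting error only. With 1 library per group there is no replicate check and no test, so every difference below compares libraries and not conditions. Tumors were digested with collagenase and hyaluronidase, and glands with these enzymes, then trypsin and dispase, before a sort whose gate is not given, so stage, age and dissociation cannot be told apart. Pairs of libraries shared 16 to 24 annotated cell barcodes. Markers of T, B, endothelial and fat cells were at or near 0 in Mature Luminal cells, where their summed levels were at most 5.26 CPM in each library, and those of macrophages at most 15.6 CPM. The summed level of the 4 EMT-like markers in Mature Luminal cells was 1476 CPM in PKA tumor, 573 in WT tumor, 116 in PKA hyperplasia and 260 in WT hyperplasia, and its part in the differences below was not tested. The kit reads RNA from its 3' end, so levels are compared between libraries or classes for 1 gene and not between genes.

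The classes are the authors' own. Per the series design they were named from marker genes, and the Mature Luminal name rested on Pgr, Prlr, Foxa1, Gpx3 and Esr1, so 4 of the 9 genes helped to define the class in which they are high. Their enrichment there is a description of that choice. Gata3, Cited1, Cited4, Tnfsf11 and Wnt4 were not among the naming markers. Mature Luminal cells numbered 177 in PKA tumor (6.71% of cells, 5.78 to 7.73), 872 in WT tumor (16.8%, 15.8 to 17.9), 251 in PKA hyperplasia (6.57%, 5.81 to 7.41) and 116 in WT hyperplasia (3.05%, 2.52 to 3.64). The PKA library thus had the lower share of the class in tumors and the higher share in hyperplasia.

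Where the members start in the genome is given from the GRCm38 mouse build, on which all 9 are protein-coding genes. Esr1 lies on chromosome 10 at 4611593 to 5005614, Pgr on chromosome 9 at 8899833 to 8968611, and Prlr on chromosome 15 at 10177238 to 10349180. Foxa1 lies on chromosome 12 at 57540628 to 57546916, Gata3 on chromosome 2 at 9857078 to 9890034, and Tnfsf11 on chromosome 14 at 78277445 to 78308043. Cited1 lies on the X chromosome at 102247381 to 102252181, while Cited4, at 120666572 to 120667820, and Wnt4, at 137277489 to 137299726, both lie on chromosome 4. Gata3 overlaps 3 other annotated genes, each with 2 to 24 UMIs in any library, and Prlr overlaps Gm21973 on the same strand, for which no counts were analysed here.

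RefSeq promoter sequences (GRCm38.p6, 250 bases before to 50 after a start site) were matched for all 9 genes. Those of Tnfsf11, Cited1 and Cited4 are shown because these genes had the widest differences between libraries: Tnfsf11 was read almost only in WT hyperplasia, Cited4 almost only in tumors, and Cited1 differed in opposite directions at the stages. Capitals mark matches to a TATA box or a CCAAT box on either strand. The windows are chr14:78307994-78308293 on the minus strand for Tnfsf11, chrX:102252132-102252431 on the minus strand for Cited1, where the table has 3 starts and the nearest to the annotated gene start is shown, and chr4:120666313-120666612 on the plus strand for Cited4.
Tnfsf11: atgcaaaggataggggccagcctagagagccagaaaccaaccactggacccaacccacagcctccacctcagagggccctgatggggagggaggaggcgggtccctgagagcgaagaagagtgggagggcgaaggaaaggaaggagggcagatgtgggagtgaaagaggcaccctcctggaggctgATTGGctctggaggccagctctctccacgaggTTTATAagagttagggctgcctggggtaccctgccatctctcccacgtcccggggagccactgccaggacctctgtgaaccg
Cited1: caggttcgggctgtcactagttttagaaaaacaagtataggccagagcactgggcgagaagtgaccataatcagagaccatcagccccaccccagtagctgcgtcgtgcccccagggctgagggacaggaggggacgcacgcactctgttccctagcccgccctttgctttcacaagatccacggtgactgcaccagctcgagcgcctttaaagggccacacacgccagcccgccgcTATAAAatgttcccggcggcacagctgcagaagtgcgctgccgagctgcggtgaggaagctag
Cited4: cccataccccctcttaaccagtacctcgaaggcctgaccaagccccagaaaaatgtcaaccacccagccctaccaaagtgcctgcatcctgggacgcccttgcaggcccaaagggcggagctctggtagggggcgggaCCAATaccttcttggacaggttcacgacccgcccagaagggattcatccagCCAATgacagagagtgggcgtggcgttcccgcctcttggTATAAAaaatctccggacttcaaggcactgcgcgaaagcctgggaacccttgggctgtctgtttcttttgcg
TATAAA was found in the Cited1 and Cited4 windows, ending 8 and 17 bases before the listed start, and in reverse in the Tnfsf11 and Pgr windows. It is held by 13.6% of all 32851 promoters of the table, and CCAAT by 37.4%. CCAAT was found in the windows of Esr1, Prlr, Foxa1 and Cited4, in Cited4 at 2 places, and in reverse in those of Pgr and Tnfsf11. A forkhead match (TGTTTAC, 3.65% of promoters) was found in the promoter of Foxa1 alone among the 9. The remaining motifs were in none of the 9 windows on either strand. These were the factor motif AGATAA bound by the protein of Gata3, held by 11.2% of promoters, and the estrogen receptor half-site AGGTCA, held by 16.3%. The progesterone receptor half-site AGAACA is held by 19.0%, and the STAT motif TTCNNNGAA by 8.30%. The cyclic AMP response element TGACGTCA is held by 1.79%, and its half-site TGACG, which overlaps it, by 20.8%. A match or its absence describes letters in these windows only.

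The 9 genes did not form a single pattern across classes. Pgr and Cited1 were nearly confined to Mature Luminal cells in all 4 libraries, and Foxa1 and Wnt4 in the tumors but less so in hyperplasia. Mature Luminal cells held most UMIs of Prlr in each library, and of Esr1 in each but WT hyperplasia. Gata3 was read in every class, and Cited4 was lowest in Mature Luminal cells of the tumors. The label of a hormone receptor lineage gene therefore fits Cited4 poorly in these libraries. The plot of levels by library and class shows this gene by gene.

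**Figure D1:**
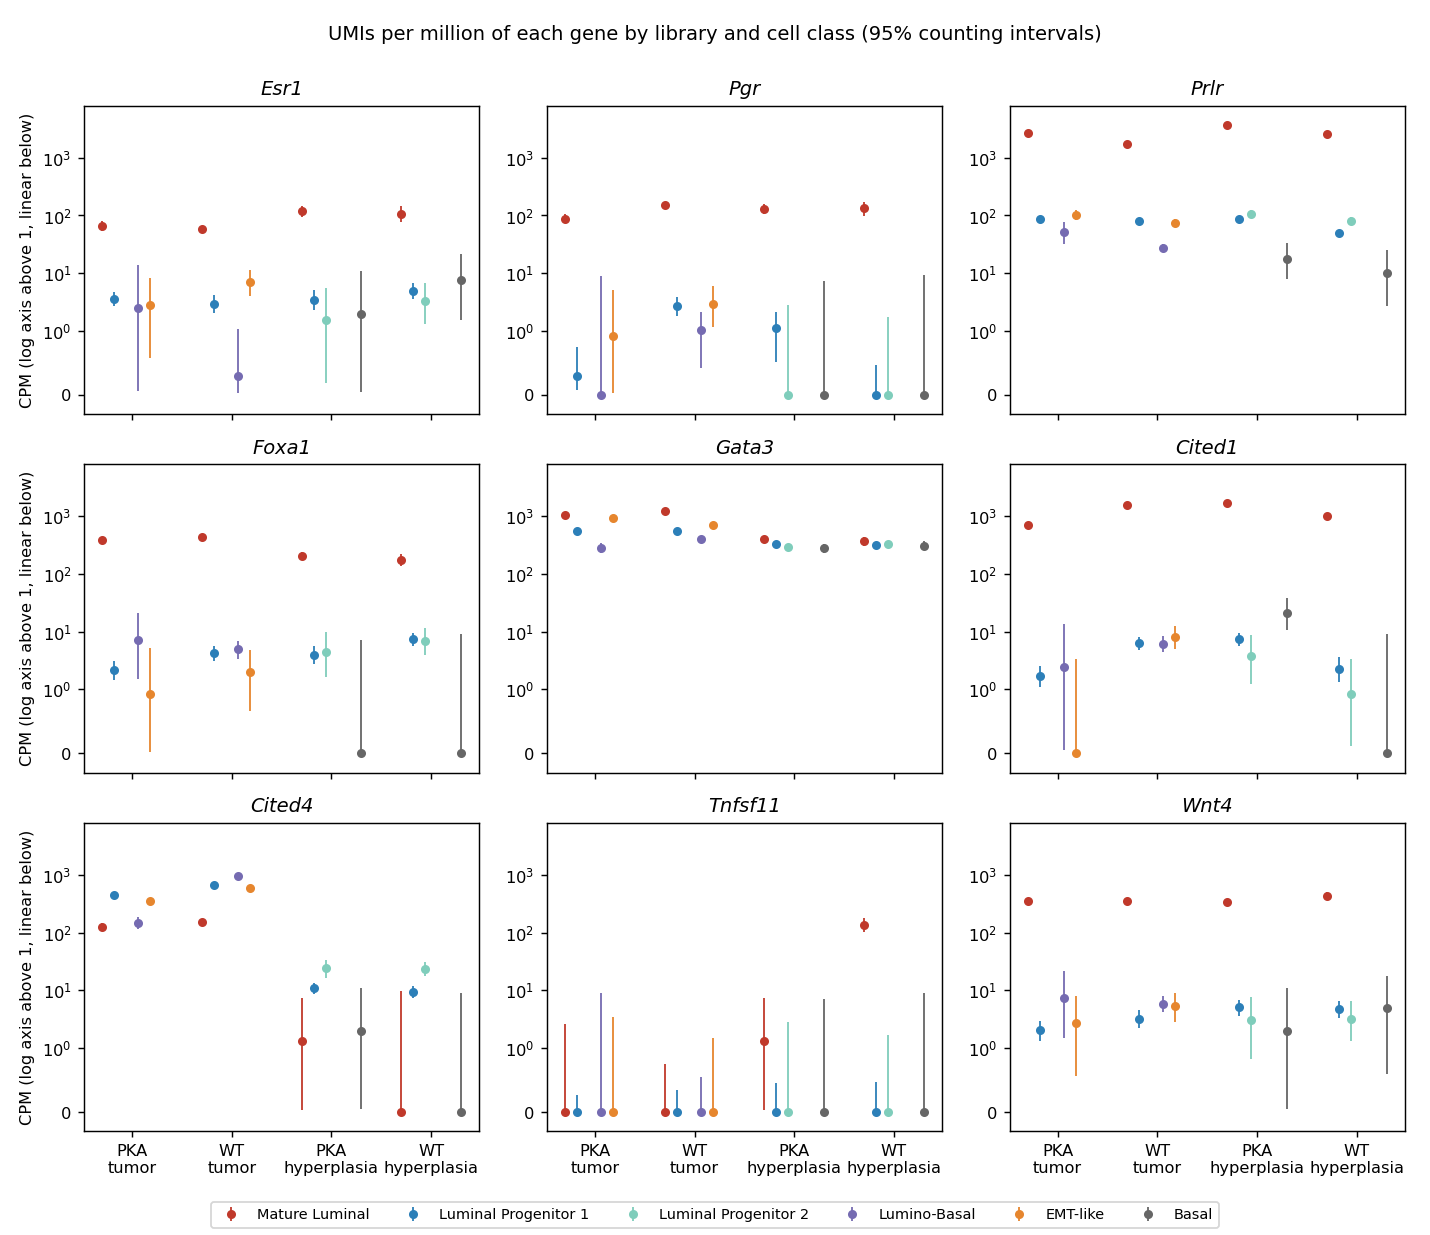
Each panel plots the CPM of 1 gene (vertical axis, logarithmic above 1) in the 4 libraries (horizontal axis), with a point per cell class and bars for 95% counting intervals. Mature Luminal points lie far above the rest for Esr1, Pgr, Prlr, Foxa1, Cited1 and Wnt4, close to them for Gata3 in hyperplasia, and at or near the bottom for Cited4.

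Of the receptor genes, Pgr was the most restricted. Mature Luminal cells held 96.2% of its UMIs in PKA tumor (91.3 to 98.7), 94.7% in WT tumor (92.9 to 96.1), 91.6% in PKA hyperplasia (84.6 to 96.1) and all 51 UMIs in WT hyperplasia. Esr1 was less so: the class held 63.5% of its UMIs in PKA tumor, 85.1% in WT tumor, 74.4% in PKA hyperplasia and 45.6% in WT hyperplasia. The remaining Esr1 UMIs were spread thinly, and the level in Luminal Progenitor 1 cells, the most numerous class, was 2.95 to 4.97 CPM over the 4 libraries. Prlr was read outside the class in all libraries, at 85.6, 79.8, 85.7 and 49.5 CPM in Luminal Progenitor 1 cells of PKA tumor, WT tumor, PKA hyperplasia and WT hyperplasia.

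These levels outside the class were not a fixed fraction of the level within it. In PKA tumor, the Luminal Progenitor 1 level as a percentage of the Mature Luminal level was 0.329% for Pgr, 0.243% for Cited1, 0.548% for Foxa1, 3.22% for Prlr and 5.51% for Esr1. In WT hyperplasia it was 0% for Pgr, 0.224% for Cited1, 4.17% for Foxa1, 1.92% for Prlr and 4.65% for Esr1. The share of these reads that comes from free RNA was not tested. In Basal cells of hyperplasia, a class not known for Prlr, its level was 17.5 CPM in PKA hyperplasia and 9.95 in WT hyperplasia, on 9 and 4 UMIs.

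Within Mature Luminal cells, Prlr had 2661 CPM in PKA tumor (2577 to 2747), 1738 in WT tumor (1701 to 1775), 3695 in PKA hyperplasia (3560 to 3834) and 2580 in WT hyperplasia (2422 to 2746). The PKA library was higher at both stages. Esr1 had 65.6 CPM in PKA tumor (53.0 to 80.3), 58.6 in WT tumor (52.0 to 65.8), 118 in PKA hyperplasia (95.2 to 146) and 107 in WT hyperplasia (76.6 to 145). Both tumor levels lay below both hyperplasia levels, within each stage the intervals overlapped, and so did those of PKA tumor and WT hyperplasia. Pgr had 88.0 CPM in PKA tumor (73.3 to 105), 153 in WT tumor (142 to 165), 129 in PKA hyperplasia (105 to 157) and 133 in WT hyperplasia (98.9 to 175). The PKA tumor was lowest, with an interval apart from that of WT tumor and overlapping that of WT hyperplasia. It only just met the interval of PKA hyperplasia, and the log2 ratio to that library was -0.55 (-0.94 to -0.16).

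Of the transcription factor genes, Foxa1 kept mainly to Mature Luminal cells in the tumors, which held 94.3% of its UMIs in PKA and 96.2% in WT. In hyperplasia the class held 80.4% of them in PKA and 48.2% in WT. Its Mature Luminal level was 396 CPM in PKA tumor (364 to 430), 434 in WT tumor (416 to 453), 205 in PKA hyperplasia (174 to 240) and 177 in WT hyperplasia (137 to 224), so that both tumor levels lay above both hyperplasia levels. Gata3 had 1071 CPM in Mature Luminal cells of PKA tumor (1018 to 1126), 1266 in WT tumor (1234 to 1298), 399 in PKA hyperplasia (355 to 446) and 370 in WT hyperplasia (311 to 436). It followed the same order of stages.

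Gata3 differed from Foxa1 in being read in all classes. In Luminal Progenitor 1 cells it had 557, 552, 333 and 315 CPM in PKA tumor, WT tumor, PKA hyperplasia and WT hyperplasia, and in Basal cells 281 CPM in PKA hyperplasia and 311 in WT hyperplasia. Mature Luminal cells were the highest class in each library, followed in the tumors by EMT-like cells, with 935 CPM in PKA tumor and 716 in WT tumor. In WT hyperplasia the Mature Luminal interval overlapped those of other classes, and the class held only 4.09% of the UMIs of Gata3 there, against 37.5% in WT tumor.

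The co-activator genes Cited1 and Cited4, members of a single family, had nearly opposite class patterns. Cited1 had 97.6%, 98.4%, 94.5% and 95.2% of its UMIs in Mature Luminal cells of PKA tumor, WT tumor, PKA hyperplasia and WT hyperplasia, the highest share of the 9 genes in both tumors. Its level there was 716 CPM in PKA tumor (672 to 761), 1559 in WT tumor (1524 to 1594), 1706 in PKA hyperplasia (1614 to 1801) and 1023 in WT hyperplasia (924 to 1129). None of the 4 intervals overlapped, with PKA tumor the lowest and PKA hyperplasia the highest.

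Cited4, by contrast, had only 2.60% and 4.76% of its UMIs in Mature Luminal cells of PKA and WT tumor. In PKA tumor its level was 127 CPM in Mature Luminal, 460 in Luminal Progenitor 1, 149 in Lumino-Basal and 359 in EMT-like cells. In WT tumor it was 156 CPM in Mature Luminal, 684 in Luminal Progenitor 1, 983 in Lumino-Basal and 594 in EMT-like cells. Lumino-Basal cells were thus the highest class in WT tumor, while in PKA tumor their interval overlapped that of Mature Luminal cells. In hyperplasia the gene was low in all classes, at most 24.2 CPM in PKA hyperplasia and 23.6 in WT hyperplasia, both in Luminal Progenitor 2 cells, with 1 UMI in Mature Luminal cells of PKA hyperplasia and 0 in those of WT hyperplasia.

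The secreted signal genes also parted. Mature Luminal cells held 93.7% of the UMIs of Wnt4 in PKA tumor, 95.3% in WT tumor, 85.0% in PKA hyperplasia and 78.3% in WT hyperplasia. Wnt4 was read in Mature Luminal cells of every library at like levels, 353 CPM in PKA tumor (322 to 385), 360 in WT tumor (343 to 377), 343 in PKA hyperplasia (303 to 388) and 432 in WT hyperplasia (369 to 503). Neighbouring intervals in this order of size overlapped, with WT hyperplasia the highest. Tnfsf11 had 53 UMIs in Mature Luminal cells of WT hyperplasia, or 138 CPM (103 to 180), spread over 30 of 116 cells. All UMIs of the gene in the annotated cells of that library were in this class. PKA hyperplasia had 1 UMI in 251 Mature Luminal cells, and PKA tumor and WT tumor had 0 in 177 and 872, which allows levels of up to 2.09 and 0.615 CPM in those cells. The barcodes left out of the annotation added 3 UMIs of Tnfsf11 in WT hyperplasia and 0 in the other libraries.

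The first comparison asked how the genes differ between PKA and WT tumors. Over all cells, 4 of the 8 members that reached 10 UMIs when the libraries were added up were at least 2-fold lower in PKA tumor: Pgr, Foxa1, Cited1 and Wnt4. The share of all 20146 genes so measured that was at least 2-fold lower was 7.92%, and 9.52% were at least 2-fold higher, a range that held 0 of the 8 members. Cited1 had 62.7 CPM in PKA tumor and 316 in WT tumor (log2 ratio -2.33, -2.43 to -2.24), and Pgr 7.82 and 32.2 CPM (log2 ratio -2.04, -2.32 to -1.78). Foxa1 had 35.9 CPM in PKA tumor and 89.9 in WT tumor, and Wnt4 32.2 CPM in PKA tumor and 75.2 in WT tumor. Mature Luminal cells held 8.55% of the UMIs of PKA tumor and 19.9% of those of WT tumor.

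Within Mature Luminal cells, 1 of the 8 members stayed past 2-fold, Cited1, which was lower in PKA tumor (log2 ratio -1.12, -1.22 to -1.03), beside 6.22% of 14131 genes lower and 11% higher by as much. Pgr was lower by less than 2-fold (log2 ratio -0.80, -1.08 to -0.53), and Prlr was higher (log2 ratio 0.61, 0.56 to 0.67). Foxa1 (log2 ratio -0.13, -0.27 to 0.00) and Wnt4 (log2 ratio -0.03, -0.17 to 0.11) differed little, and both intervals reached 0. When both tumors were given the same shares of the 4 classes, the log2 ratio over all cells was -0.15 for Foxa1, -0.05 for Wnt4 and -0.90 for Pgr, and only Cited1 was still past 2-fold, at -1.14.

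**Figure D2:**
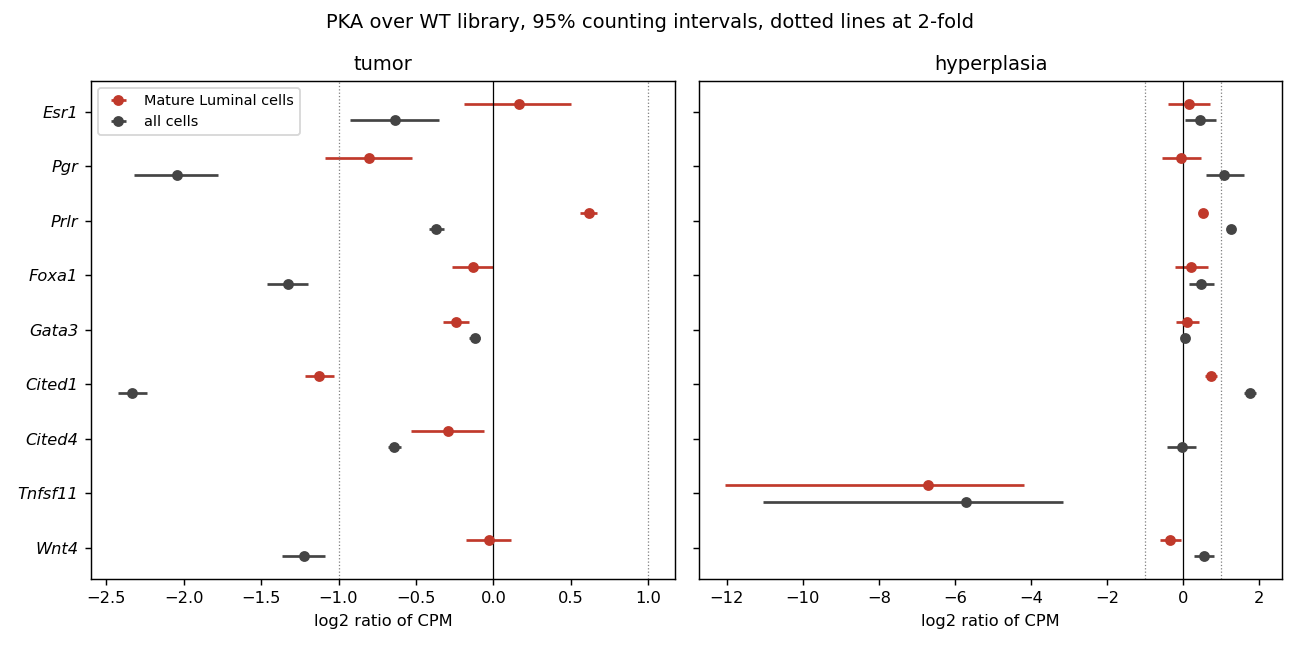
The log2 ratio of CPM in the PKA library over the WT library (horizontal axis) is plotted for each gene (vertical axis) in tumor and hyperplasia, with red points for Mature Luminal cells, dark points for all cells and bars for 95% counting intervals. Over all cells Pgr, Foxa1, Cited1 and Wnt4 lie left of the 2-fold line in tumor, while in Mature Luminal cells only Cited1 does. Tnfsf11 is missing in tumor, where both libraries had 0 UMIs.

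The WT tumor class was not uniform. The authors' clusters split it into cluster 1 with 409 cells and cluster 3 with 463, while all 177 Mature Luminal cells of PKA tumor were in 1 cluster, numbered 2. Cited1 had 2352 CPM in WT cluster 1 and 915 in WT cluster 3, and Prlr 674 CPM in WT cluster 1 and 2600 in WT cluster 3. Gata3 had 899 CPM in WT cluster 1 and 1563 in WT cluster 3. The authors made the clusters from these same cells, so the difference between them is a description.

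The PKA tumor cells had 2661 CPM of Prlr and 716 CPM of Cited1, near the values of WT cluster 3. Against cluster 3 alone, the log2 ratio of PKA over WT was 0.03 for Prlr, -0.36 for Cited1, -0.55 for Gata3 and -0.96 for Pgr, and 0 members were past 2-fold. Against cluster 1 alone, it was 1.98 for Prlr, -1.72 for Cited1, 0.25 for Gata3 and -0.58 for Pgr, with Prlr and Cited1 past 2-fold. The size of the difference in Prlr and Cited1 between the tumors therefore depends on which WT cells are taken. Cited1 and Pgr were lower in PKA tumor against either cluster, while Gata3 was higher against cluster 1 and lower against cluster 3. Cited4 had 127 CPM in PKA tumor, between the 209 of WT cluster 1 and the 112 of WT cluster 3. Esr1, Foxa1 and Wnt4 stayed between -0.22 and 0.21.

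**Figure D3:**
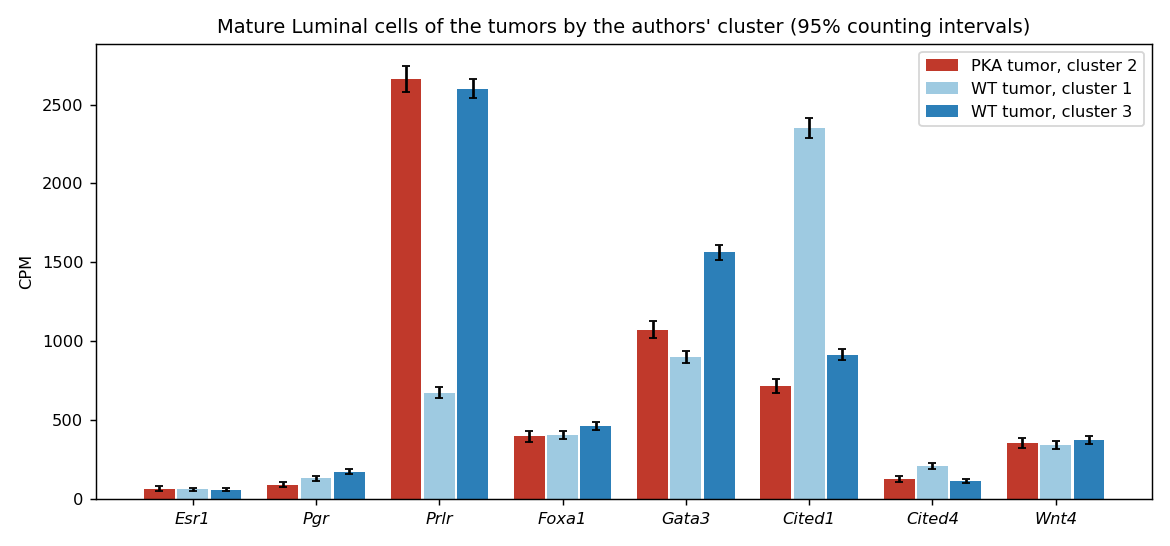
Bars give the CPM (vertical axis) of 8 genes (horizontal axis) in the authors' clusters of Mature Luminal tumor cells, with 95% counting intervals. Prlr is at 2661 CPM in PKA tumor cluster 2 and 2600 in WT tumor cluster 3 but at 674 in WT tumor cluster 1, where Cited1 is highest at 2352 CPM.

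WT cluster 1 is also the one with high Upk3a, a uroplakin gene, and Fgb, a fibrinogen chain gene. Upk3a had 184 CPM in PKA tumor cluster 2, 3251 in WT cluster 1 and 539 in WT cluster 3, and Fgb had 1356, 2809 and 1154 CPM in the same clusters. At a depth of 2000 UMIs per cell, Cited1 was read in 72.3% of PKA tumor Mature Luminal cells with a UMI of Fgb or Upk3a (57.4 to 84.4) and in 21.6% of those without (14.7 to 29.8). In WT tumor the shares were 72.4% with (67.7 to 76.7) and 36.6% without (32.1 to 41.2). Prlr was read in 78.9% of WT tumor cells with and 88.3% without such a UMI, and in PKA tumor in 97.9% with and 97.6% without.

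Fibroblast markers differed between the libraries as well. The summed level of Col1a1, Col1a2, Col3a1, Dcn and Pdgfra in Mature Luminal cells was 30.0 CPM in PKA tumor, 901 in WT tumor, 120 in PKA hyperplasia and 609 in WT hyperplasia. In WT tumor 3 of the 5 markers, Col1a2, Col3a1 and Pdgfra, were at 0, and Dcn was among the 10 leading genes of WT cluster 1. In WT hyperplasia 1 of the 5, Pdgfra, was at 0. Cells with a UMI of Fgb or Upk3a were counted among Mature Luminal cells thinned to 2000 UMIs. In tumor they were 47 of 172 in PKA and 402 of 845 in WT. In hyperplasia they were 60 of 174 in PKA and 4 of 88 in WT. The part of these genes in the differences was not tested.

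The second comparison asked the same of hyperplasia. Over all cells, 3 of the 9 members were at least 2-fold higher in PKA hyperplasia, beside 4.72% of 16671 genes, and 1 member was at least 2-fold lower, beside 4.28%. The higher members were Cited1, with 129 CPM in PKA and 38.2 in WT hyperplasia (log2 ratio 1.75, 1.59 to 1.91), Prlr, with 343 and 144 CPM in PKA and WT (log2 ratio 1.25, 1.16 to 1.33), and Pgr, with 10.0 and 4.72 CPM in PKA and WT (log2 ratio 1.09, 0.60 to 1.6). The lower one was Tnfsf11. Mature Luminal cells held 7.14% of the UMIs of PKA hyperplasia and 3.56% of those of WT hyperplasia.

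Within Mature Luminal cells, Tnfsf11 alone was past 2-fold, lower in PKA hyperplasia with 1 UMI against 53 (log2 ratio -6.71, -12 to -4.17), beside 7.36% of 9092 genes lower and 9.65% higher. Cited1 and Prlr were higher in PKA hyperplasia by less than 2-fold (log2 ratios 0.74, 0.57 to 0.90, and 0.52, 0.41 to 0.62). The log2 ratio was -0.04 for Pgr (-0.55 to 0.48), 0.15 for Esr1 (-0.40 to 0.72), 0.21 for Foxa1, 0.11 for Gata3 and -0.33 for Wnt4 (-0.62 to -0.04). With class shares made equal, the ratio over all cells was 0.57 for Prlr, 0.80 for Cited1 and 0.12 for Pgr, and only Tnfsf11 was past 2-fold.

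The Tnfsf11-positive cells of WT hyperplasia were looked at among the other Mature Luminal cells of that library. The 30 cells with a UMI had a median of 3251 UMIs, against 3112 in the 86 without. Wnt4 was read in 83.3% of them (65.3 to 94.4) and 65.1% of the rest (54.1 to 75.1), and Cited1 in 80.0% (61.4 to 92.3) and 57.0% (45.8 to 67.6). Pgr was read in 26.7% of cells with Tnfsf11 (12.3 to 45.9) and 32.6% of those without (22.8 to 43.5). All of these pairs of intervals overlapped. Calca, which encodes calcitonin and its related peptide, had 10131 CPM in the cells with Tnfsf11 and 5903 in those without. By share of cells it was read in 100% (88.4 to 100) and 90.7% (82.5 to 95.9), and these intervals overlapped too.

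The third comparison set each tumor against hyperplasia of the same genotype, and so uses the same 4 libraries again. The median of all genes was itself shifted towards tumor, by 0.30 log2 units over all cells in PKA and 0.37 in WT, and by 0.20 and 0.16 in Mature Luminal cells of PKA and WT, so a member's ratio is to be read against these. Over all cells, 1 of 8 members was at least 2-fold higher in PKA tumor than in PKA hyperplasia, beside 28.5% of 18755 genes, and 1 was at least 2-fold lower, beside 10.4%, or 38.9% in either direction. In WT, 7 of 9 members were at least 2-fold higher in tumor, beside 29.7% of 19402 genes, and 1 was lower, beside 10.6%, or 40.3% in either direction. Mature Luminal cells held 19.9% of the UMIs of WT tumor and 3.56% of those of WT hyperplasia. In PKA they held 8.55% in tumor and 7.14% in hyperplasia. Both WT libraries were also given the same shares of the 2 classes that both stages hold. The log2 ratio was then -0.42 for Prlr, -0.28 for Wnt4, 0.32 for Pgr and 0.62 for Cited1. Foxa1, Gata3 and Cited4 stayed past 2-fold, at 1.11, 1.07 and 6.23.

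Over all cells, Cited4 had the highest ratio of tumor over hyperplasia of the members in both genotypes. It had 418 CPM in PKA tumor and 11.4 in PKA hyperplasia (log2 ratio 5.20, 4.94 to 5.47), and 651 CPM in WT tumor and 11.7 in WT hyperplasia (log2 ratio 5.80, 5.55 to 6.07). Within Mature Luminal cells it was at least 19.9-fold higher in WT tumor, counting the 0 UMIs of WT hyperplasia as 3, and in PKA the log2 ratio rested on 182 UMIs in tumor and 1 in hyperplasia (6.59, 4.10 to 11.9). In Luminal Progenitor 1 cells, which both stages hold in number, it had 460 CPM in PKA tumor and 10.8 in PKA hyperplasia, and 684 CPM in WT tumor and 9.55 in WT hyperplasia.

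Within Mature Luminal cells, Gata3 was higher in tumor by a log2 ratio of 1.43 in PKA (1.25 to 1.61) and 1.78 in WT (1.54 to 2.03), and Foxa1 by 0.95 (0.69 to 1.21) in PKA and 1.29 (0.95 to 1.67) in WT. Esr1 was lower in tumor, with log2 ratios of -0.85 in PKA (-1.28 to -0.42) and -0.87 in WT (-1.34 to -0.36), and Prlr was lower by less, at -0.47 in PKA and -0.57 in WT, although against WT cluster 3 alone the Prlr value was 0.01. The log2 ratio of Pgr was -0.55 in PKA (-0.94 to -0.16) and 0.21 in WT (-0.20 to 0.65). The median mitochondrial share of Mature Luminal cells was 1.76% in PKA tumor, 1.82% in WT tumor, 3.81% in PKA hyperplasia and 3.80% in WT hyperplasia, while in Luminal Progenitor 1 cells it was 1.57% to 1.74% in all 4. The part of this difference in the ratios was not tested. At least 2-fold higher were 2 of 8 members in PKA, Gata3 and Cited4, beside 21.5% of 11452 genes, and 3 of 9 in WT, Foxa1, Gata3 and Cited4, beside 25.9% of 13435. At least 2-fold lower were Cited1 in PKA, beside 8.18% of genes, and Tnfsf11 in WT, beside 15.2%. In either direction, 29.7% of genes in PKA and 41% in WT were past 2-fold.

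Cited1 took opposite directions in the genotypes. In Mature Luminal cells it had 716 CPM in PKA tumor and 1706 in PKA hyperplasia (log2 ratio -1.25, -1.37 to -1.13), but 1559 CPM in WT tumor and 1023 in WT hyperplasia (log2 ratio 0.61, 0.46 to 0.76). The WT value again followed the clusters, at 1.20 for cluster 1 and -0.16 for cluster 3. Tnfsf11 was at least 224-fold lower in Mature Luminal cells of WT tumor than in those of WT hyperplasia, counting the 0 UMIs of the tumor as 3, and in PKA too few UMIs were read at either stage for a ratio. The log2 ratio of Wnt4 was 0.04 in PKA (-0.18 to 0.26) and -0.26 in WT (-0.49 to -0.03).

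Luminal Progenitor 1 cells gave a second class present in all libraries, in which the lineage genes other than Gata3, Cited4 and Prlr were at a few CPM. In PKA over WT tumor, 2 of 8 members were at least 2-fold lower, Pgr on 4 and 28 UMIs and Cited1 on 24 and 66, beside 5.54% of 18056 genes lower, 10.7% higher and 16.3% in either direction. In PKA over WT hyperplasia, 1 of 7 was at least 2-fold higher, Cited1 on 60 and 18 UMIs, beside 3.76% of 15040 genes higher, 4.77% lower and 8.52% in either direction. Cited1 thus differed in the same direction there as in Mature Luminal cells at each stage. Its Luminal Progenitor 1 level was only 0.224% to 0.437% of its Mature Luminal level over the libraries. The part of free RNA in these reads was not tested. In tumor over hyperplasia, Cited4 alone of the 8 members was at least 2-fold higher in PKA, on 6370 and 87 UMIs. At least 2-fold lower were Pgr on only 4 and 9 UMIs, Cited1 on 24 and 60, and Wnt4 on 28 and 41. These stood beside 31.6% of 17557 genes higher, 9.74% lower and 41.3% in either direction. In WT, Pgr on 28 and 0 UMIs, Cited1 on 66 and 18, and Cited4 on 7177 and 75 were at least 2-fold higher. There 0 members were lower, beside 28.3% of 16605 genes higher, 11.8% lower and 40.1% in either direction.

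**Figure D4:**
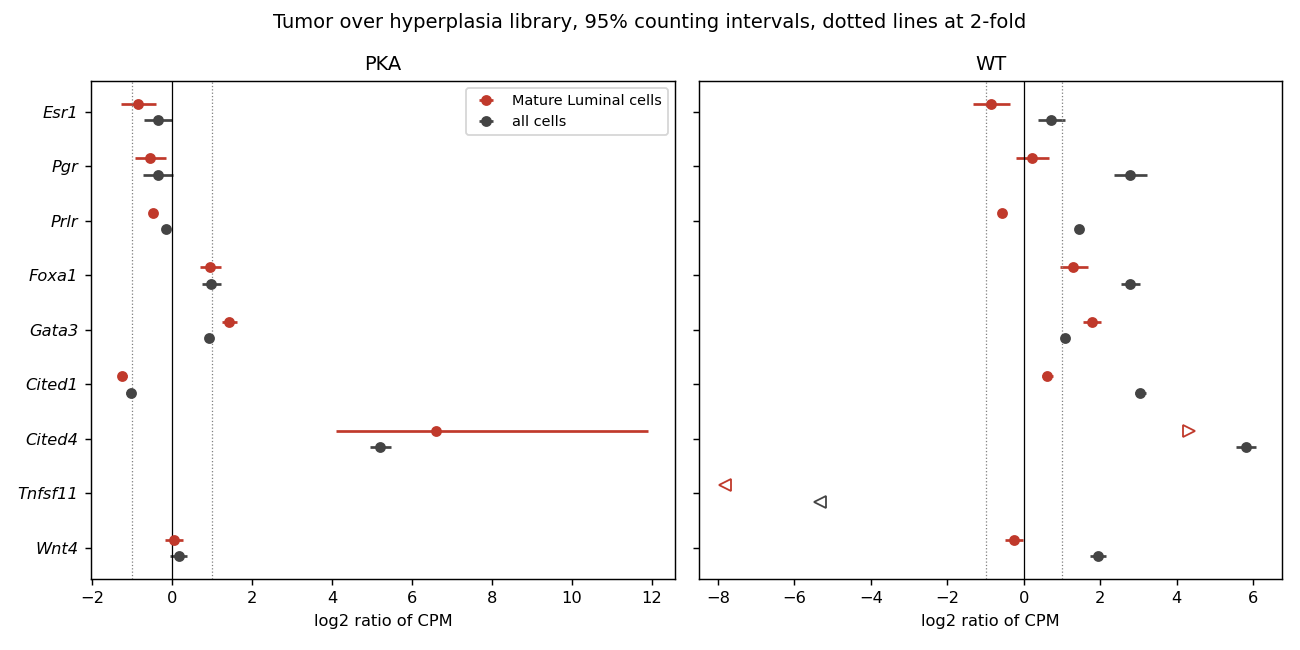
The log2 ratio of CPM in tumor over hyperplasia (horizontal axis) is plotted for each gene (vertical axis) in PKA and WT, with red points for Mature Luminal cells, dark points for all cells, bars for 95% counting intervals, and open triangles for bounds where 1 library had 0 UMIs. Gata3, Foxa1 and Cited4 lie right of 0 in both panels, and the Mature Luminal point of Cited1 lies left of 0 in PKA and right of it in WT.

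Within cells, the number of members read was set against independent reading of each gene. With each Mature Luminal cell thinned to 2000 UMIs, which left out 5, 27, 77 and 28 shallower cells of PKA tumor, WT tumor, PKA hyperplasia and WT hyperplasia, the median cell carried a UMI of 4, 4, 3 and 3 of the 9 genes. At least 2 were read in 96.5% of cells of PKA tumor (92.6 to 98.7), 97.5% of WT tumor (96.2 to 98.5), 90.2% of PKA hyperplasia (84.8 to 94.2) and 89.8% of WT hyperplasia (81.5 to 95.2). Independent reading of each gene at its own share would give 98.0%, 97.9%, 95% and 95.4%. The observed share was thus below the independent one in all 4 libraries, and in both hyperplasia libraries by over 4 percentage points, with the independent value outside the counting interval there. At the upper end, 7 members were read in 2.33% of cells of PKA tumor, against 0.648% if independent, and 6 members in 5.75% of cells of PKA hyperplasia, against 2.23%. In WT tumor 6 members were read in 7.81% of cells, against 7.24%, and in WT hyperplasia in 1.14%, against 4.01%, with 7 members in 2.27%, against 0.602%. These shares rest on 1 to 10 cells, apart from the 66 of WT tumor.

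**Figure D5:**
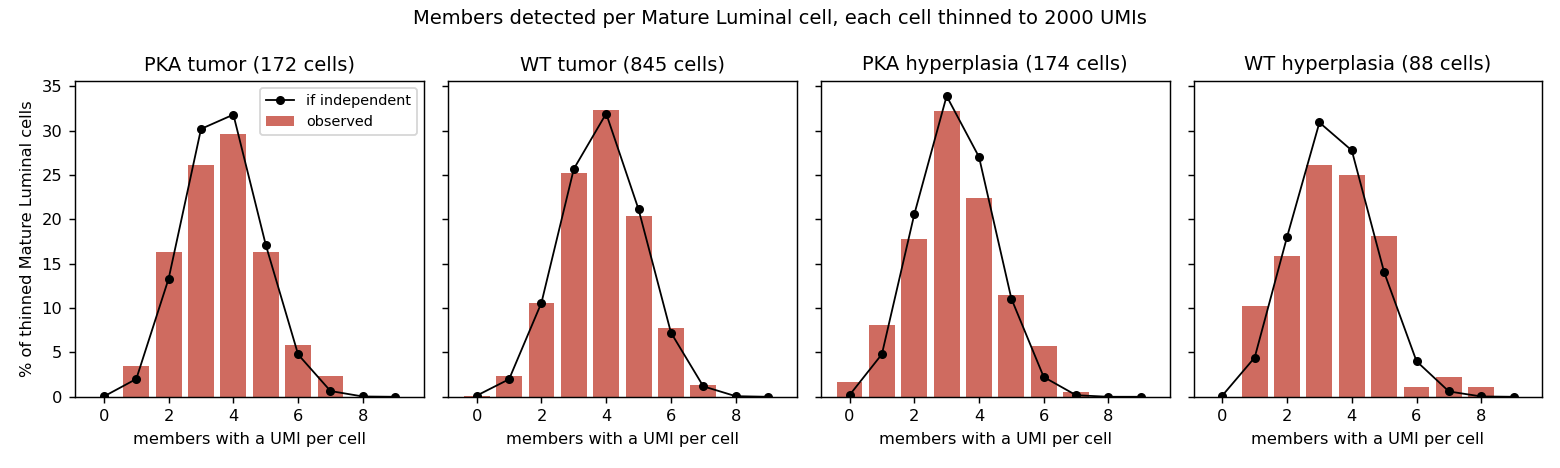
The percentage of Mature Luminal cells (vertical axis) is plotted by the number of the 9 genes with a UMI (horizontal axis) for each library, as bars for the observed share and points joined by a line for the share expected if each gene were read independently. The observed median is 4 genes in both tumors and 3 in both hyperplasia libraries.

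By single genes at that depth, Prlr was read in 97.7% of Mature Luminal cells of PKA tumor, 83.8% of WT tumor, 95.4% of PKA hyperplasia and 96.6% of WT hyperplasia; without thinning the shares were 100%, 95.2%, 94.0% and 96.6%. In Basal cells of hyperplasia the thinned share of Prlr was 2.73% in PKA (3 of 110 cells, 0.566 to 7.76) and 5.06% in WT (4 of 79, 1.40 to 12.5). Without thinning the Basal shares were 2.63% in PKA and 2% in WT. Unthinned median depths of Basal cells were 1975.5 and 1731.5 UMIs in PKA and WT, against 3051 and 3177.5 in Mature Luminal cells. Pgr was read in 15.7%, 26.5%, 20.7% and 25% of thinned Mature Luminal cells of PKA tumor, WT tumor, PKA hyperplasia and WT hyperplasia, and in 0 of the thinned Basal cells. Esr1 was read in 14.0%, 12%, 20.1% and 20.5%, so most cells of the class had no UMI of either steroid receptor gene at this depth.

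Pairs of genes were mostly read together slightly more often than the product of their shares. Among pairs with at least 5 cells expected, 22 of 27 lay above the product in PKA tumor, 17 of 28 in WT tumor, 19 of 21 in PKA hyperplasia and 17 of 25 in WT hyperplasia. Pairs above the product by less than 1 cell are included, such as Prlr and Foxa1 in PKA tumor, with 86 cells against 85.95. Prlr was read in most cells, so its pairs can hardly leave the product. Pairs of other genes were not counted, so these counts do not set the members apart. Esr1 and Pgr, whose products act together in this lineage, were read in the same cell 13 times against 7.24 expected in PKA hyperplasia and 33 times against 26.8 in WT tumor. In PKA hyperplasia Pgr was read in 37.1% of Esr1-positive cells (21.5 to 55.1) and 16.5% of Esr1-negative cells (10.8 to 23.8), whose intervals overlapped. In WT tumor Cited4 was read in 17.7% of Cited1-positive cells (14.3 to 21.5) and 26.0% of Cited1-negative cells (21.7 to 30.7), the lowest ratio to the product of any pair there.

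The genes most like the set were found over the 16 sums of a library and a class, which share libraries and class names, by Pearson's r of log2(CPM + 10) among 3355 genes of at least 100 CPM in a sum. Pgr had r = 0.98 with the mean of the members, Wnt4 0.97, Foxa1 0.97, Prlr 0.96, Cited1 0.95 and Esr1 0.93. Gata3 had only 0.58, Tnfsf11 0.45 and Cited4 -0.01. Each member is itself part of that mean, and Pgr, Prlr, Foxa1 and Esr1 helped to name the Mature Luminal class. These values are therefore a description. The 10 other genes closest to that mean were Capsl, Msx2, Tmem56, Cxcl15, R3hdml, Dnajc12, Gipc2, Tcea3, Ffar4 and Abcc3, with r of 0.96 to 0.97. Closest to Tnfsf11 alone were H19 (0.98), Calca (0.92) and Adra1a (0.85). Tnfsf11 had 138 CPM in Mature Luminal cells of WT hyperplasia and at most 1.32 CPM in any other sum. Its r values thus rest on the Mature Luminal sum of WT hyperplasia. Closest to Cited4 were Nrtn, Tob1 and Unc119 (0.96 to 0.98).

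Other genes of the hormone pathways were taken from 6 lists of 54 genes, of which Areg and Tff3 were not analysed here. The list of estrogen response genes, of which 8 of 10 were measured in Mature Luminal cells of the tumors, had 2 at least 2-fold lower in PKA tumor and none higher, with a median log2 ratio of -0.22 against 0.09 over all genes, of which 6.22% were at least 2-fold lower and 11% higher. The lower ones were Stc2, encoding the secreted glycoprotein stanniocalcin, with 325 CPM in PKA tumor and 1184 in WT tumor, and Ccnd1, encoding cyclin D1, with 139 CPM in PKA tumor and 292 in WT tumor. In hyperplasia 5 of the list were measured there. Stc2 was higher in PKA, with 527 CPM in PKA and 88.5 in WT hyperplasia, and Xbp1, encoding a secretory-pathway factor, was lower, with 114 CPM in PKA and 232 in WT, beside 9.65% of all genes higher and 7.36% lower by as much.

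Of the progesterone response genes, Calca had 2.09 CPM in Mature Luminal cells of PKA tumor and 112 in WT tumor, and 28.9 CPM in PKA hyperplasia and 7047 in WT hyperplasia. It was lower in the PKA library at both stages (log2 ratios -5.74, -8.02 to -4.18, in tumor and -7.93, -8.60 to -7.33, in hyperplasia). Zbtb16, encoding a zinc finger factor, had 23.7 CPM in PKA hyperplasia and 67.7 in WT hyperplasia, and Fkbp5, encoding a chaperone of steroid receptors, was the third of 4 measured genes lower by 2-fold, on 6 and 8 UMIs in PKA and WT, beside 7.36% of all genes lower by as much. The other measured gene, Tsc22d3, had a log2 ratio of -0.14. In tumor 1 of 6 measured genes was lower, Calca, and 1 higher, Ncam1, beside 6.22% of all genes lower and 11% higher.

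Of the prolactin and STAT5 genes, 2 of 8 were at least 2-fold higher in Mature Luminal cells of PKA tumor than of WT tumor, Socs2, a feedback inhibitor of this pathway, with 281 CPM in PKA and 113 in WT, and Ghr, the growth hormone receptor gene, with 64.2 CPM in PKA and 26.6 in WT. The list's median log2 ratio was 0.18 against 0.09 over all genes, of which 11% were at least 2-fold higher and 6.22% lower. In hyperplasia 1 of 7, Elf5, was lower in PKA, on 7 and 8 UMIs in PKA and WT, and Socs2 had 316 CPM in PKA and 469 in WT. None of the 8 receptor co-regulator genes was past 2-fold in the tumor comparison, and 1, Ncoa1, was higher in PKA hyperplasia, where 9.65% of all genes were higher and 7.36% lower by as much. Of 10 paracrine receptor and modulator genes, 7 were measured in tumor, with Lgr4 higher and Tnfrsf11b lower in PKA, beside the 11% and 6.22% of all genes in tumor, and 3 in hyperplasia, with none past 2-fold. Tnfrsf11a, which encodes the receptor of RANKL, had 8.38 CPM in PKA tumor, 10.9 in WT tumor, 3.95 in PKA hyperplasia and 0 UMIs in WT hyperplasia in Mature Luminal cells.

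Among further genes of hormone-sensing luminal cells, Ly6d, Prom1, Ptn and Ly6a were at least 2-fold higher in Mature Luminal cells of PKA hyperplasia. Ly6d, a surface antigen gene, had 6334 CPM in PKA and 200.4 in WT hyperplasia, and Prom1, which encodes the surface marker CD133, 253 CPM in PKA and 62.5 in WT. Ptn, encoding the growth factor pleiotrophin, had 2896 CPM in PKA and 1075 in WT. Ly6a, another surface antigen gene, had 3805 CPM in PKA and 1057 in WT. In tumor, the genes at least 2-fold lower in PKA were Gpx3, one of the genes the class was named from, with 478 CPM in PKA tumor and 1923 in WT tumor, and Ptn, with 68.4 CPM in PKA tumor and 193 in WT tumor.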

How the data were processed

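Cells of 4 groups (PKA tumor, WT tumor, PKA hyperplasia and WT hyperplasia, 1 library each) were profiled by 3' single-cell RNA sequencing after a sort, aiming at 5000 cells a library and 50000 reads a cell per the labels' protocols. Sample titles gave the groups. The authors deposited unnormalized UMI counts for each gene and barcode. Per the submitters' processing notes the tools were Cell Ranger, STAR 2.5.3a, featureCounts and Subread 1.6.0 on GRCm38/mm10. The annotation release of the counts is not given here. A deposited table lists each annotated cell with its UMI and gene counts, its fraction of mitochondrial UMIs, its class and, in tumors, a cluster number. Classes were assigned with Monocle2 by the authors, per the series design.

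UMIs were summed over annotated cells by library and class and scaled to CPM. Log2 ratios carry exact conditional binomial 95% intervals, CPM exact Poisson ones and shares Clopper-Pearson ones, all for counting error only. For a fold against a count of 0, the 0 was taken as 3 counts. A gene was measured in a comparison with 10 UMIs or more over the pair of libraries, and called past a fold of 2. For shares of cells with a UMI, cells were thinned to 2000 UMIs. Steps were tested on simulated counts. The labels do not mention doublets, and none were called or removed here. The members and lists were chosen with earlier results of these data known. Named genes were the 9 members, the 10 genes closest to their mean pattern, up to 3 closest to a member, and genes of 6 lists. Positions are from GENCODE M21 and promoters from RefSeq. Software was edgeR 4.0.16 in R 4.3.3 (TMM factors only), pandas 2.3.3, SciPy 1.17.1, NumPy 2.4.6 and matplotlib 3.10.9 under Python 3.11.15. A gene of the list of further hormone-sensing luminal genes, and the counts over that list, are not reported here.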

Additional observations from a re-analysis of the deposited data

Results flagged for a closer look

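Several members differed between PKA and WT in opposite directions in tumor and hyperplasia, with both counting intervals off 0. The difference between the stages was not tested, since each group is 1 library. Over all cells, the log2 ratio in tumor minus that in hyperplasia was -4.09 for Cited1, -3.13 for Pgr, -1.81 for Foxa1, -1.78 for Wnt4, -1.62 for Prlr and -1.08 for Esr1. The share of Mature Luminal cells went the same way, lower in PKA among tumors (6.71% in PKA and 16.8% in WT) and higher in PKA among hyperplasias (6.57% in PKA and 3.05% in WT). Within Mature Luminal cells only Cited1 met the same condition, with a difference of -1.86. Its value in tumor moved with the WT cluster taken, as given above.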

How the results depend on the processing

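No paired analysis was possible because each group is 1 library and no result comes from a test. Giving both libraries the same class shares moved 3 counts of members past 2-fold over all cells, to 1 in PKA over WT tumor (4 as reported), to 1 in PKA over WT hyperplasia (4 as reported) and to 4 in WT tumor over WT hyperplasia (8 as reported). For tumor over hyperplasia this setting took only the 2 classes that both stages hold, Mature Luminal and Luminal Progenitor 1, and left out all other cells. In WT tumor over WT hyperplasia it turned the log2 ratio of Prlr to -0.42 and of Wnt4 to -0.28. Both were at least 2-fold higher as reported, and Esr1 went from 0.72 to -0.84. In PKA over WT tumor it turned Prlr from -0.37 to 0.54 and Esr1 from -0.64 to 0.17. In PKA over WT hyperplasia it turned Esr1 from 0.45 to -0.15, Foxa1 from 0.48 to -0.13 and Wnt4 from 0.55 to -0.27. An alternative chosen after seeing the data took the authors' WT tumor clusters singly. The count in Mature Luminal cells for PKA over WT tumor, 1 as reported, was then 2 with cluster 1 and 0 with cluster 3. Another scaling (TMM, or totals free of mitochondrial, ribosomal protein and milk genes), cell averages of CPM, stricter cell filters, omission of the deepest cells, thinning, other minimums and all barcodes left each count within 1.5 times. Under these, Pgr dropped below 2-fold in PKA over WT hyperplasia with thinning, Gata3 in WT tumor over WT hyperplasia over all cells with either scaling, and Cited1 gave way to Foxa1 in PKA tumor over PKA hyperplasia over all cells without the deepest cells. TMM moved the median log2 ratio of all genes to 0.11 in PKA and 0.17 in WT for tumor over hyperplasia over all cells, and in Mature Luminal cells to 0.09 in PKA, 0.32 in WT and -0.10 for PKA over WT tumor. In Mature Luminal cells this took Esr1 to -0.03 for PKA over WT tumor, and Wnt4 to -0.07 for PKA tumor over PKA hyperplasia, both near 0 with either scaling. Of 478 single member values under alternatives, 77 left their counting interval with no turn of a 2-fold value, and 32 changed sign, of which 2, Prlr and Wnt4 above, had been past 2-fold. Mature Luminal shares stayed within their intervals. The share of Mature Luminal cells with 2 or more members rested on depth and on the cells kept, since thinning leaves out shallower cells. With thinning to 1000 UMIs it was 84.2% in PKA tumor, 85.0% in WT tumor, 80.0% in PKA hyperplasia and 78.9% in WT hyperplasia. With thinning to 3000 UMIs it was 96.9% in PKA tumor, 99.0% in WT tumor, 96.9% in PKA hyperplasia and 98.4% in WT hyperplasia, and without thinning it was 100% in PKA tumor, 99.5% in WT tumor, 92.0% in PKA hyperplasia and 96.6% in WT hyperplasia. Depth limits the rarer genes most, with 41 UMIs of Esr1 and 51 of Pgr in Mature Luminal cells of WT hyperplasia.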

Other observations

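Barcodes outside the authors' annotation, 296 in PKA tumor, 619 in WT tumor, 1040 in PKA hyperplasia and 1371 in WT hyperplasia, also carried the members. Their median depth was 786.5, 740, 486.5 and 411 UMIs in that order. Cited1 had 23.6, 97.3, 105 and 15.4 CPM in these barcodes of PKA tumor, WT tumor, PKA hyperplasia and WT hyperplasia, beside 62.7, 316, 129 and 38.2 CPM in the annotated cells of the same libraries. Cited4 had 371, 528, 12.7 and 21.9 CPM in them, high in both tumors and low in both hyperplasia libraries as in the annotated cells.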
